A study of Mus musculus with 18 samples.

Results

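Expression of 9 genes of the endocannabinoid system was examined in the ventral dentate granule cell layer of adult male mice. The genes were taken by symbol from a list of the enzymes that make and break down endocannabinoids and of their main brain receptor, and all 9 were found among the 34620 genes of the count tables. All 9 also had enough reads to be tested, as did 17421 genes in all. The study asked whether the environment of a mother deficient in the serotonin 1A receptor leaves lasting changes of gene expression in genetically wild-type offspring and grandoffspring. RNA-Seq was done on 6 libraries, 2 per group, from Swiss Webster males 8 to 12 weeks old whose brains came from at least 3 litters per group. WT males came from a control lineage with WT mothers and grandmothers. F1 males were WT offspring of 5HT1A-/+ mothers that were mated with heterozygous males, so that heterozygous and knockout siblings shared their litters. F2 males had a WT mother, herself an F1 female, a WT father and a 5HT1A-/+ grandmother. None of the 3 groups carried the mutant allele, and Swiss Webster is an outbred strain. How many animals stand behind a library is not given in the sources used here, so the p-values measure only the spread between these libraries.

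Endocannabinoids are lipid messengers that neurons make on demand from membrane lipids and release backwards across the synapse, where they act on the cannabinoid receptor CB1 of the presynaptic terminal and lower transmitter release. There are 2 main ones: 2-arachidonoylglycerol (2-AG), made by diacylglycerol lipases and removed mainly by monoacylglycerol lipase, and anandamide, one of the N-acylethanolamines, which are released from membrane precursors by a phospholipase D and removed by fatty acid amide hydrolase. In the dentate gyrus CB1 is most abundant on the terminals of cholecystokinin interneurons and of mossy cells, while granule cells are known for making 2-AG in their dendrites.

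Reads counted on genes numbered between 26358165 and 33727936 per library. Levels are given as CPM, counts per 1e+06 reads on genes after TMM scaling (a correction for composition between libraries), and groups as mean ± SD of 2 libraries. Changes are log2 fold changes against WT, tested with edgeR's exact test over all tested genes. A gene was called at q (the Benjamini-Hochberg adjusted p) under 0.01. The same WT libraries were the reference for both F1 and F2.

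Among the 9 genes, Daglb rose in F1 and Faah fell in F2, and these were the only calls (1 of 9 in each comparison). Across all tested genes, 12.3% were called in F1 (3.77% higher and 8.54% lower than WT) and 12% in F2 (3.86% higher and 8.1% lower), so the share among the 9 genes was near the background in both. At q under 0.05, 5 of the 9 genes passed in F1 (Daglb, Mgll, Abhd6 and Naaa higher, Faah lower), against 20.8% of all genes. In F2 the same threshold was passed by 4 (Daglb, Mgll and Naaa higher, Faah lower), against 20.7% of all genes. The median log2 fold change of the 9 genes was 0.29 in F1 and 0.12 in F2, against 0.01 and 0.00 over all tested genes. The edgeR quasi-likelihood test called 0 of the 9 genes at q under 0.01 in F1 and 0 in F2, with unadjusted p under 0.05 for 6 and 4 of them. It called 5.91% of all genes in F1 and 5.72% in F2. The study's own list of lipid genes changed in both F1 and F2, drawn from these same libraries, names Daglb, Mgll, Faah and Naaa. Their directions here are therefore not independent evidence. The fit used here called none of them in both groups at q under 0.01. At q under 0.05, the threshold of the study's methods, each of them passed in both groups in the same direction. That list also names Abhd4, Gnaq and Plcb4, so the same limit holds for their values further on.

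**Figure D1:**
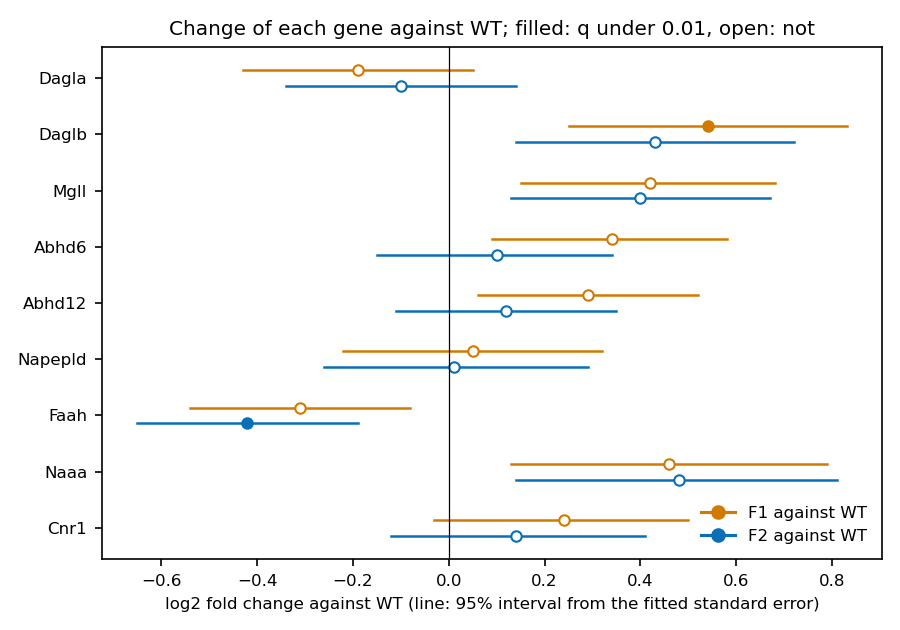
Log2 fold change of each of the 9 genes in F1 (orange) and F2 (blue) against WT on the horizontal axis, with 95% intervals from the fitted standard error (lines). Filled points mark q under 0.01: Daglb in F1 at 0.54 and Faah in F2 at -0.42.

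The pair of diacylglycerol lipases, which release 2-AG from diacylglycerol, differed from each other. Daglb, the lipase known mostly from macrophages and microglia, stood at 24.1 and 23.0 CPM in the WT libraries. It was at 30.9 and 37.5 CPM in the F1 libraries and at 32.8 and 30.6 CPM in the F2 libraries. All 4 F1 and F2 libraries thus lay above both WT libraries, and those of F1 and F2 overlapped. Daglb was 23.5 ± 0.806 CPM (SD, n = 2) in WT and 34.2 ± 4.65 CPM in F1, a log2 fold change of 0.54 (standard error 0.15, adjusted p = 0.00283 by edgeR's exact test), or 1.45-fold. In F2 it was 31.7 ± 1.55 CPM, with a log2 fold change of 0.43 (standard error 0.15) that was not called (adjusted p = 0.0221 by edgeR). F2 was not shown to differ from F1 (log2 difference -0.11, 95% interval -0.39 to 0.18). The summed level of 7 microglial markers was also above WT in all 4 of these libraries (118 and 119 CPM in WT, 141 and 164 CPM in F1, 183 and 157 CPM in F2), and its part in the values of Daglb was not tested. In bulk tissue, more cells of a type and more RNA per cell cannot be told apart. The F1 call was lost by the quasi-likelihood test in edgeR (adjusted p = 0.0139), and also without WT replicate 1, WT replicate 2 or F1 replicate 2, where edgeR's adjusted p was 0.0273, 0.0516 and 0.0889 and the log2 fold change 0.58, 0.52 and 0.40.

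Dagla, the lipase that makes most of the 2-AG used as a synaptic signal in the adult brain, was not called in either group. It was at 187 and 179 CPM in WT, at 149 and 172 CPM in F1 and at 161 and 180 CPM in F2. Both F1 libraries lay below both WT libraries, whereas F2 overlapped with WT. In F1 the log2 fold change was -0.19 (95% interval -0.43 to 0.05, adjusted p = 0.28 by edgeR). In F2 it was -0.10 (95% interval -0.34 to 0.14, adjusted p = 0.615 by edgeR). Leaving out F1 replicate 1 or F1 replicate 2 gave -0.08 and -0.29 in F1, and leaving out F2 replicate 1 or F2 replicate 2 gave -0.02 and -0.18 in F2. Without WT replicate 1 the F2 value was -0.06. The ratio of Daglb to Dagla read counts within a library, which needs no scaling between libraries, was 0.128 in both WT libraries. It was 0.208 and 0.218 in F1 and 0.204 and 0.17 in F2, above WT in all 4.

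The window around the start of Daglb (chr5:143464243-143464542, + strand, GRCm38.p6) is shown beside that of Faah (chr4:116017875-116018174, - strand, same build) because these are the genes that were called. Each holds 250 bases before the start and 50 after it, from RefSeq, and capitals mark GC boxes, matches to GGGCGG on either strand.
Daglb: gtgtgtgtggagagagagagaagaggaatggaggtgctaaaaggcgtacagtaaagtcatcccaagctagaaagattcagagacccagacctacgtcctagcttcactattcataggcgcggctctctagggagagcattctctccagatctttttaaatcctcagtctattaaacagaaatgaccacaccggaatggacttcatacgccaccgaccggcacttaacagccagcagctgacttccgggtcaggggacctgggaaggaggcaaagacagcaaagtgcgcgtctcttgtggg
Faah: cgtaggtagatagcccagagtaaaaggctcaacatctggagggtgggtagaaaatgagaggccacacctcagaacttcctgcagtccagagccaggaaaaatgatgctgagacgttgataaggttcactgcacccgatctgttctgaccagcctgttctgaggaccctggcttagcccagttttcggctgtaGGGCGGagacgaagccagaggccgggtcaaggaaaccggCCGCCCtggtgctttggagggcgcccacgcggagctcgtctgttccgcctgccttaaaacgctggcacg

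Of the motifs searched on both strands, the Faah window held 2 GC boxes and the Daglb window 0, where 35.7% of 32851 RefSeq windows of this length hold at least 1. Neither window held a TATA box (TATAAA, in 13.6% of windows), a cAMP response element (TGACGTCA, in 1.79%) or an E-box (CACGTG, in 7.15%). CG dinucleotides numbered 16 in the Faah window and 11 in that of Daglb, with a median of 7 over all windows. RefSeq windows were matched for 7 of the 9 genes, 11 windows in all. Among the others, Mgll and Abhd6 held 1 GC box in each of their windows, Naaa held 1 and Napepld 0. One of the 3 Cnr1 windows held 5 and the others 0. These matches describe the letters of the windows and were not tested against expression.

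Of the enzymes that break down 2-AG, none was called. Mgll, the monoacylglycerol lipase that removes most 2-AG in the brain, was at 141 and 135 CPM in WT, at 159 and 210 CPM in F1 and at 186 and 179 CPM in F2. All F1 and F2 libraries lay above both WT libraries, and the F1 libraries differed most from each other. The log2 fold change of Mgll was 0.42 in F1 (standard error 0.14, 95% interval 0.15 to 0.68, adjusted p = 0.0167 by edgeR). In F2 it was 0.40 (standard error 0.14, 95% interval 0.13 to 0.67, adjusted p = 0.0228 by edgeR). The size in F1 hung on F1 replicate 2: without it the log2 fold change was 0.21 (adjusted p = 0.352 by edgeR), and without F1 replicate 1 it was 0.62 (adjusted p = 9.45e-05 by edgeR). In F2, Mgll passed without F1 replicate 1 or 2, which enter this comparison only through the shared fit. Without WT replicate 1 or 2 the F2 value was 0.44 and 0.38, and Mgll did not pass. Nor did it pass without F2 replicate 1 or 2, where the value was 0.38 and 0.43. A noncoding gene on the opposite strand, Gm16628, overlaps 90 bases (1.85%) of the Mgll exons, and whether the counting used strand is not given in the sources used here.

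Abhd6, a serine hydrolase that degrades 2-AG on the postsynaptic side, was at 59.1 and 50.4 CPM in WT, at 66.2 and 72.3 CPM in F1 and at 59.0 and 58.1 CPM in F2. F1 lay above WT and F2 overlapped with it. F1 gave a log2 fold change of 0.34 (95% interval 0.09 to 0.58, adjusted p = 0.0378 by edgeR), and F2 gave 0.10 (95% interval -0.15 to 0.34, adjusted p = 0.65 by edgeR). The difference of F2 from F1 was -0.24 (95% interval -0.49 to 0.00), and it was not called (adjusted p = 0.6 by edgeR).

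Abhd12, a hydrolase of 2-AG and of lysophosphatidylserine, was at 223 and 204 CPM in WT. It was at 255 and 267 CPM in F1 and at 224 and 240 CPM in F2. F1 stood clear of WT, while the lower F2 library was within 1 CPM of the higher WT library. For Abhd12 the log2 fold change came to 0.29 against WT in F1 (95% interval 0.06 to 0.52, adjusted p = 0.0575 by edgeR), while F2 gave 0.12 (95% interval -0.11 to 0.35, adjusted p = 0.517 by edgeR). With single libraries left out, the F2 value lay between 0.07 (without WT replicate 2 or F2 replicate 2) and 0.19 (without WT replicate 1). Within a library, reads on Mgll per read on Dagla numbered 0.754 and 0.757 in WT, 1.07 and 1.22 in F1, and 1.15 and 0.996 in F2. The ratio was higher than in WT in all 4 F1 and F2 libraries.

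**Figure D2:**
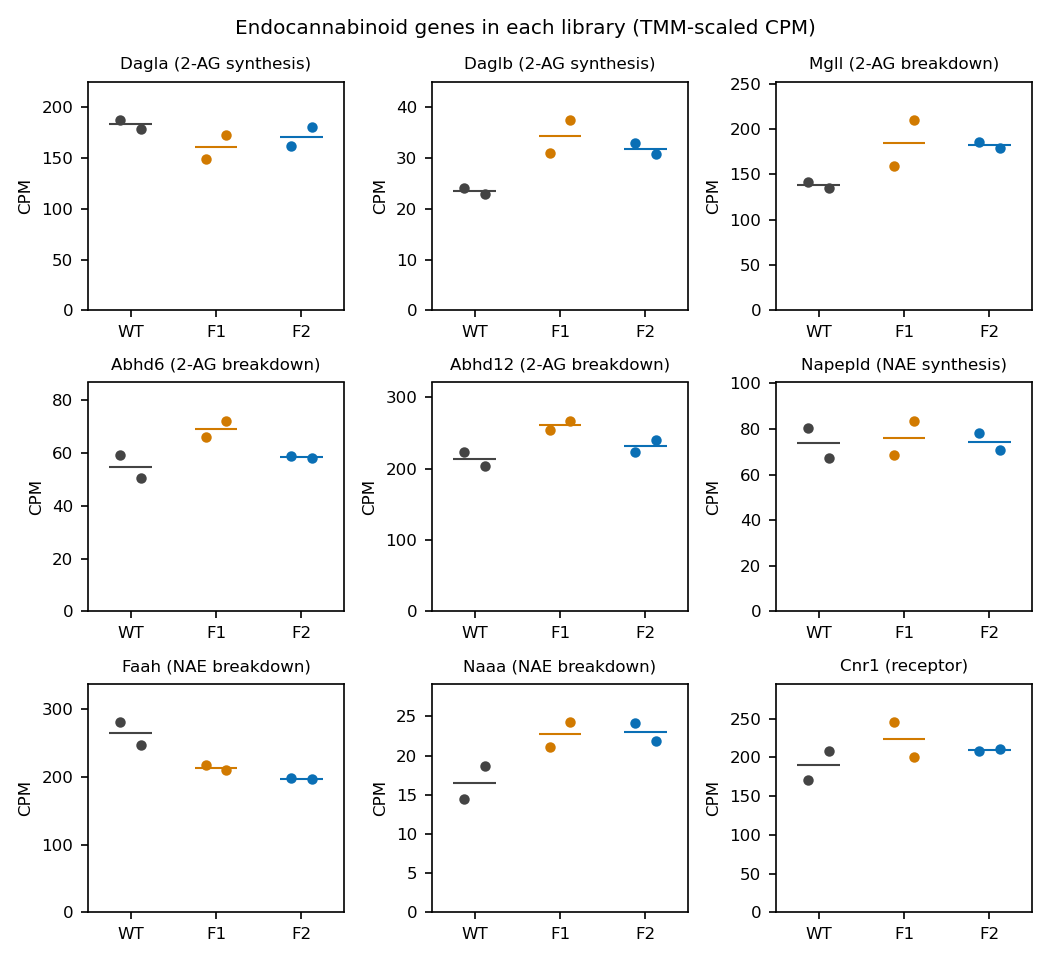
TMM-scaled CPM of each gene (vertical axes, from 0) in the WT, F1 and F2 libraries; points are libraries and bars are means of 2. NAE stands for N-acylethanolamine. Faah is lower in all F1 and F2 libraries than in WT, and Daglb, Mgll, Abhd12 and Naaa are higher.

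On the N-acylethanolamine side, the enzyme of synthesis had the smallest fold changes of the 9 genes in F1 and in F2. Napepld, a phospholipase D that releases anandamide and its relatives from their membrane precursor, was at 80.2 and 67.1 CPM in WT. It was at 68.7 and 83.7 CPM in F1 and at 78.1 and 70.8 CPM in F2, and the 3 groups overlapped. Its log2 fold change was 0.05 in F1 (95% interval -0.22 to 0.32) and 0.01 in F2 (95% interval -0.26 to 0.29). It turned sign in both groups when single libraries were left out.

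Faah encodes fatty acid amide hydrolase, which ends anandamide signalling in neurons. It was at 281 and 247 CPM in WT, at 217 and 210 CPM in F1 and at 198 and 196 CPM in F2. Both WT libraries lay above all others, and both F1 libraries lay above both F2 libraries. Mean Faah was 264 ± 24.7 CPM (SD, n = 2) in WT. It fell to 197 ± 1.3 CPM in F2, a log2 fold change of -0.42 (standard error 0.12, adjusted p = 0.00398 by edgeR's exact test), or 0.748 of the WT level. In F1 it was 213 ± 5.53 CPM, with a log2 fold change of -0.31 (standard error 0.12) that was not called (adjusted p = 0.0458 by edgeR). F2 was not shown to differ from F1 (log2 difference -0.11, 95% interval -0.34 to 0.12). The F2 call was lost by the quasi-likelihood test in edgeR (adjusted p = 0.0163), without the filter on low counts (adjusted p = 0.014) and without WT replicate 1, F2 replicate 1 or F2 replicate 2, where edgeR's adjusted p was 0.141, 0.0841 and 0.0756. Without WT replicate 1, the WT library with more Faah, the log2 fold change was -0.32.

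Naaa, an acid amidase of lysosomes that prefers palmitoylethanolamide and is known mostly from macrophages, was on the other side of WT. It was at 14.4 and 18.7 CPM in WT, at 21.1 and 24.3 CPM in F1 and at 24.2 and 21.8 CPM in F2. All 4 F1 and F2 libraries were above WT, and WT replicate 1 was the lowest of the 6. F1 differed from WT by 0.46 on the log2 scale (95% interval 0.13 to 0.79, adjusted p = 0.0384 by edgeR) and F2 by 0.48 (95% interval 0.14 to 0.81, adjusted p = 0.0305 by edgeR), so neither was called. With single libraries left out, the F1 value lay between 0.28 and 0.66, and that of F2 between 0.31 and 0.68. The lowest of each came without WT replicate 1 and the highest without WT replicate 2. Reads on Naaa per read on Faah numbered 0.0513 and 0.0757 in WT, 0.0969 and 0.116 in F1, and 0.122 and 0.111 in F2. Reads on Mgll per read on Faah numbered 0.502 and 0.549 in WT, 0.732 and 1.00 in F1, and 0.936 and 0.913 in F2. Of 7 ratios computed, 5 were above WT in all 4 F1 and F2 libraries, the fifth being Napepld per Faah (0.285 and 0.272 in WT, 0.316 to 0.399 in the others). The other 2 were not. Abhd6 per Mgll was 0.418 and 0.373 in WT, 0.416 and 0.344 in F1, and 0.318 and 0.324 in F2. Abhd12 per Mgll was 1.58 and 1.51 in WT, 1.60 and 1.27 in F1, and 1.21 and 1.34 in F2. Each of the 5 ratios above WT holds a gene that by itself lay beyond both WT libraries (Daglb, Mgll, Naaa or Faah). They are therefore no separate support for the changes of these genes, and no share over other pairs of genes was computed.

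**Figure D3:**
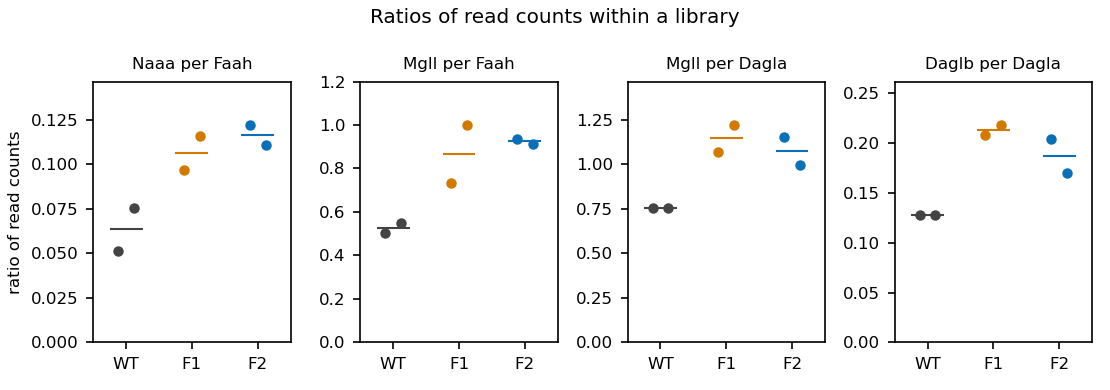
Ratios of read counts of a pair of genes within each library (vertical axes, from 0), for WT, F1 and F2; points are libraries and bars are means of 2. In each of the 4 panels, chosen from 7 ratios, all 4 F1 and F2 libraries lie above both WT libraries, as with Daglb per Dagla at 0.128 in both WT libraries and at least 0.17 in the others.

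Cnr1 encodes CB1. It was at 171 and 209 CPM in WT, at 246 and 201 CPM in F1 and at 208 and 211 CPM in F2. The groups overlapped, with F1 replicate 1 the highest and WT replicate 1 the lowest library. F1 had a log2 fold change of 0.24 (95% interval -0.03 to 0.50, adjusted p = 0.22 by edgeR), and F2 had one of 0.14 (95% interval -0.12 to 0.41, adjusted p = 0.509 by edgeR). The F1 value was 0.10 without WT replicate 1 and 0.09 without F1 replicate 1, and 0.40 without WT replicate 2 and 0.38 without F1 replicate 2. The F2 value was 0.01 without WT replicate 1 and 0.30 without WT replicate 2. F1 replicate 1 also had the highest summed level of 11 interneuron markers (1190 CPM, against 906 to 1080 CPM in the other libraries). Of the 11 markers, 7 were highest in that library (Slc32a1, Cck, Sst, Pvalb, Npy, Htr3a and Slc17a8, with Cck at 294 CPM), while Gad1, Gad2, Vip and Reln were highest in F2 libraries. The lowest interneuron sum (906 CPM) was that of F1 replicate 2. The mossy and CA3 cell list had its highest sum in WT replicate 2 (393 CPM), with 363 CPM in F1 replicate 1. The oligodendrocyte list, like Cnr1, was highest in F1 replicate 1 (2830 CPM) and lowest in WT replicate 1 (1040 CPM). Whether interneuron, mossy cell or oligodendrocyte material sets the level of Cnr1 was not tested.

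Taken by side, all 4 F1 and F2 libraries were above both WT libraries for 4 of the 9 genes (Daglb, Mgll, Abhd12 and Naaa) and below them for 1 (Faah). Over all tested genes, 21% were above and 23.7% below. Between F2 and F1, 0 of the 9 genes were called by edgeR's exact test, against 0.74% of all genes, and 0 had an unadjusted p under 0.05 (1 by the quasi-likelihood test). All 95% intervals of the difference between F2 and F1 lay within -0.49 to 0.35 on the log2 scale.

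Per kilobase of exon, Abhd12 was the most abundant of the 9 genes in every group, at 75.6 CPM per kb in WT, and Daglb and Naaa were the least, at 4.14 and 4.45 CPM per kb in WT. Between them in WT stood Faah (33.7), Dagla (31.9), Cnr1 (29.5) and Mgll (28.4 CPM per kb). Faah overlapped with Dagla, Dagla with Cnr1 and Cnr1 with Mgll. Abhd6 (25.2) and Napepld (18.6 CPM per kb) followed, without overlap, and Naaa overlapped with Daglb. In F1 and F2 the second place was taken by Mgll, at 37.9 and 37.5 CPM per kb. Faah stood sixth in both, at 27.3 and 25.2 CPM per kb. In F1, Mgll overlapped with Cnr1 and Faah with Dagla. The place of Faah rests on the length used: its annotated exons span 7834 bases and its longest coding transcript 3827 bases, and by the latter it was second in all groups, at 69.0 CPM per kb in WT and 51.6 CPM per kb in F2. By that length Daglb stood above Naaa in the mean of each group, with overlapping libraries.

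**Figure D4:**
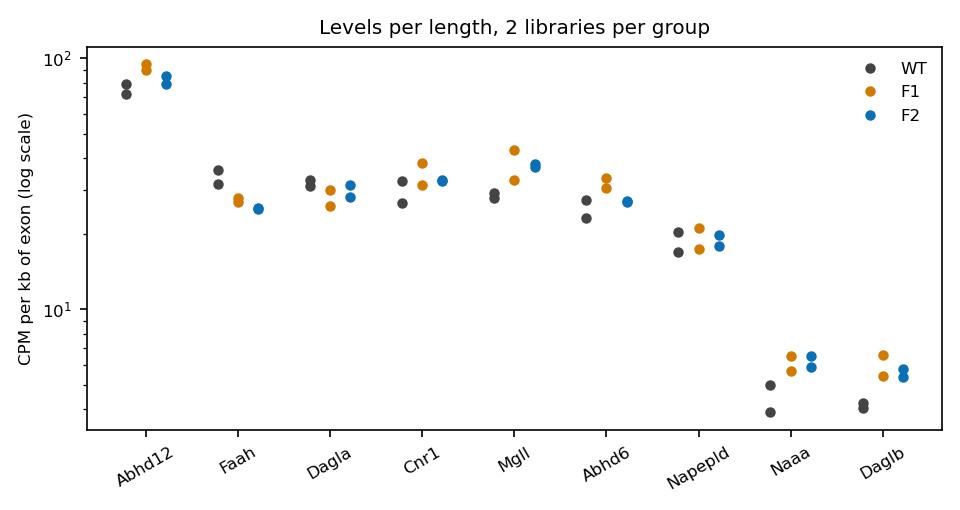
CPM per kb of annotated exon (vertical axis, log scale) of the 9 genes, with 2 points per group. Abhd12 is highest, with 75.6 CPM per kb in WT, and Naaa and Daglb are lowest, with means of 4.45 and 4.14 CPM per kb in WT.

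The genes lie apart on the genome (mm9, GENCODE M1). Faah is on chromosome 4 from 115639750 to 115690531 and Cnr1 on the same chromosome from 34011568 to 34035806. Chromosome 5 holds Daglb from 144225361 to 144265310, Napepld from 21168719 to 21207214 and Naaa from 92686686 to 92707196. Dagla is on chromosome 19 from 10319755 to 10379367, Mgll on chromosome 6 from 88674406 to 88778354, Abhd6 on chromosome 14 from 8835416 to 8889069 and Abhd12 on chromosome 2 from 150658229 to 150730477. All are protein-coding, and apart from Mgll none shares exon bases with another annotated gene.

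Among themselves, the log2 CPM of Daglb and Mgll had a Pearson correlation of 0.964 over the 6 libraries, Abhd6 and Abhd12 of 0.946, and Faah and Naaa of -0.941. These are descriptions over 6 points in 3 groups, which share the difference of the groups. In a search of 9418 genes averaging 10 CPM or more, the genes most like Faah were Klc4 (0.999) and Arfrp1 (0.998), and those most like Daglb were Zfp91 (0.999) and Camsap2 (0.997). With 6 libraries such values are common: 906 of the genes searched had a correlation over 0.9 with Faah and 838 with Daglb.

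Another 29 genes of the system were taken from a list by role, and 25 of them had enough reads. By edgeR's exact test 4 were higher and 3 lower in F1, and 2 were higher and 3 lower in F2. Over all tested genes 3.77% were higher and 8.54% lower in F1, and 3.86% and 8.1% in F2. Most of these belong to other routes to N-acylethanolamines, where the same 4 of 8 tested genes were called in F1 and in F2. Over all tested genes, 12.3% were called in F1 and 12% in F2, and the share called in both was not computed. The quasi-likelihood test called 3 of the 8 in F1 and 2 in F2, and the list was put together by hand. Abhd4, which strips acyl chains from the anandamide precursor, was at 31.0 and 34.1 CPM in WT, 45.6 and 46.3 CPM in F1, and 47.0 and 47.1 CPM in F2. It rose with log2 fold changes of 0.50 and 0.53 (adjusted p = 0.000995 and 0.000402 by edgeR), and by the quasi-likelihood test it was called in both as well (adjusted p = 0.0086 and 0.00669).

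Pla2g4e, an N-acyltransferase that makes the precursor itself, was at 44.8 and 43.0 CPM in WT, 25.6 and 27.6 CPM in F1, and 33.6 and 27.6 CPM in F2. It fell in both groups, by 0.72 (F1) and 0.52 (F2) on the log2 scale, with adjusted p of 9.03e-06 and 0.00251 by edgeR. Gdpd3, a lysophospholipase D with only 18 to 61 reads per library, fell from 1.79 and 1.87 CPM in WT to between 0.594 and 0.897 CPM in the other libraries. Its log2 fold changes were -1.41 and -1.22 (adjusted p = 0.000589 and 0.00474 by edgeR). Ptpn22, a phosphatase known mainly from lymphocytes and proposed to act on phosphorylated anandamide, had only 17 to 174 reads per library. It fell from 5.12 and 2.96 CPM in WT to between 0.631 and 1.23 CPM, with log2 fold changes of -1.93 and -2.12 (adjusted p = 6.26e-06 and 1.22e-06 by edgeR). Of the calls of Pla2g4e, Gdpd3 and Ptpn22, the quasi-likelihood test kept that of Pla2g4e in F1 and those of Ptpn22 in both groups. Gde1, Gdpd1, Hrasls and Inpp5d were not called.

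Of the genes upstream of diacylglycerol lipase, Gnaq, the G protein subunit that links receptors to phospholipase C, was called higher in F1 and F2 (log2 fold change 0.43 in each, adjusted p = 0.00973 and 0.00929 by edgeR). Both calls were lost by the quasi-likelihood test in edgeR (adjusted p = 0.0294 and 0.029). The muscarinic receptor gene Chrm3 was called in F1 (log2 fold change 0.84) and not in F2 (0.37), and F2 was not shown to differ from F1 (adjusted p = 0.445 by edgeR). Its F1 call was lost by the quasi-likelihood test in edgeR (adjusted p = 0.0134). Grm5, Chrm1, Plcb1 and Plcb4 were not called in either. Ptgs2, the cyclooxygenase that oxidizes 2-AG and anandamide, was at 17.9 and 21.9 CPM in WT, 32.9 and 28.9 CPM in F1, and 17.7 and 22.5 CPM in F2. It rose in F1 (log2 fold change 0.64, adjusted p = 0.0021 by edgeR), and the difference of F2 from F1 was -0.62 (adjusted p = 0.026 by edgeR), which misses the threshold. The F1 call of Ptgs2 was lost by the quasi-likelihood test in edgeR (adjusted p = 0.0161). Alox12 was not called.

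Of the other receptors, 3 of 6 could be tested and none was called, among them the peripheral cannabinoid receptor gene Cnr2 at 1.05 to 1.91 CPM. Gpr18, Gpr119 and Trpv1 had between 0 and 12 reads per library. The receptor partners Cnrip1 and Sgip1 and the carriers Fabp3, Fabp5 and Fabp7 were not called, with Fabp5 the nearest (log2 fold change 0.47 in F1, adjusted p = 0.0101 by edgeR).

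The tissue was checked with lists of marker genes. All 7 granule cell markers were detected in every library, with Prox1 at 228 to 345 CPM. The summed level of the list was 1180 and 1220 CPM in WT, 1010 and 1220 CPM in F1, and 1530 and 1340 CPM in F2. Other cell types were present too. Of the 7 microglial markers, whose sums are given with Daglb, 0 were called higher in F1 and 5 in F2. All 5 of these calls were lost by the quasi-likelihood test in edgeR (adjusted p = 0.0107 to 0.0248). Of the calls in all marker lists, that test kept only Slc32a1 in both groups and Aldh1l1, Gad2 and Pecam1 in F2. For this and the other marker lists, the share of all tested genes called higher by the exact test was 3.77% in F1 and 3.86% in F2. The 6 astrocyte markers summed to 830 and 921 CPM in WT, 978 and 1310 CPM in F1, and 1440 and 1130 CPM in F2, with 1 called in F1 and 3 in F2. Both sums were above WT in all 4 F1 and F2 libraries, as were Daglb, Mgll, Abhd12 and Naaa. No defining marker of these lists was at 0 in any library.

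The 8 oligodendrocyte markers summed to 1040 and 1900 CPM in WT, 2830 and 2110 CPM in F1, and 1430 and 2730 CPM in F2, so that the WT libraries differed widely and overlapped with F2, with 2 called higher in F1 and 1 in F2. Of the 11 interneuron markers 1 was called higher in F1 and 3 in F2. The 5 endothelial markers summed to 89.5 and 100 CPM in WT, 96.7 and 113 CPM in F1, and 122 and 117 CPM in F2, with 1 called in F2. The mossy and CA3 cell list summed to 298 to 393 CPM, with 1 of 5 called higher in F1, and the CA1 cell list to 86.3 to 150 CPM, with 2 of 4 called higher in F2. Of the reads with a single alignment, the share that fell outside annotated exons or on more than 1 gene was 19.2% and 22.1% in WT, 15.3% and 13.7% in F1, and 15.3% and 18.8% in F2, higher in both WT libraries than in all others. The part of glial material and of this share in the values of Daglb, Mgll, Abhd12, Naaa and Faah was not tested.

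**Figure D5:**
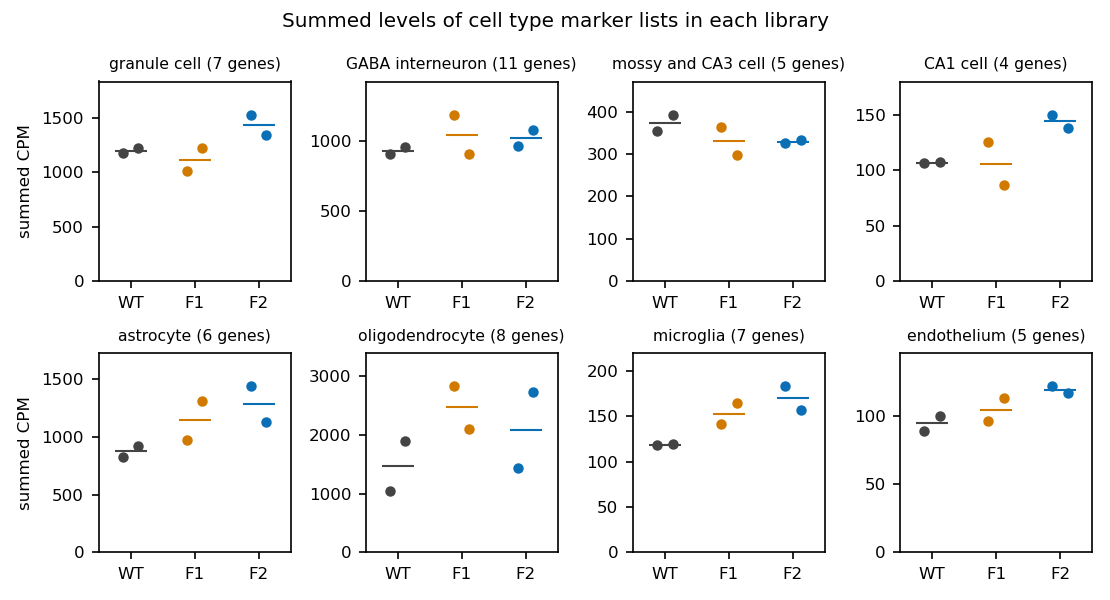
Summed TMM-scaled CPM of the markers of each cell type (vertical axes, from 0) in WT, F1 and F2; points are libraries and bars are means of 2. Microglial sums are 118 and 119 CPM in WT and 141 to 183 CPM in F1 and F2, and the oligodendrocyte sums of the WT libraries differ, at 1040 and 1900 CPM.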

How the data were processed

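Ventral dentate gyrus was microdissected from cryosections of WT, F1 and F2 males, and polyA RNA was sequenced as single-end reads of 50 bp. The authors aligned the reads to mm9 with TopHat without new junctions and deposited raw counts per gene from HTSeq in intersection-strict mode. Reads not counted on genes (outside exons, ambiguous or aligned to several places) made up 35.3% to 46.6% of the tallied reads and were left out. From these counts, filterByExpr, TMM and edgeR 4.0.16 under R 4.3.3 gave the exact test with common and then tagwise dispersion over all 6 libraries (common coefficient of variation 10.6%), and p-values were adjusted over all 17421 tested genes. The study names edgeR with tagwise dispersion but no test; it uses q under 0.01 in its results and 0.05 in its methods.

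Standard errors follow from mean counts and tagwise dispersion, and 95% intervals are 1.96 standard errors. In simulated counts for F1 against WT over 17421 genes, the exact test recovered 92% of genes changed 2-fold and 32% of those changed 1.49-fold, with 1.59% of calls false. The simulation gave every gene the common dispersion, whereas dispersion in the data varies between genes. These shares therefore do not measure the share of false calls in the data. Replicates were not duplicates (chi-square per degree of freedom 18.5 to 23). Alternatives were the quasi-likelihood test, the likelihood-ratio test, DESeq2 1.42.0, other scalings, filters and thresholds, and each library left out. The members and lists were chosen with earlier results of these data known. All 9 genes were named, the other pathway genes where called, and the 2 most correlated genes of each called gene. The values of 1 gene of the pathway list are not reported here. The bisulfite samples were not analysed here. Positions and lengths are from GENCODE M1 (mm9) and promoter windows from RefSeq (GRCm38.p6).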

Additional observations from a re-analysis of the deposited data

How the results depend on the processing

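With 2 libraries per group the calls were few and depended on the test. In F1, 1 of the 9 genes was called, and 0 by the quasi-likelihood test with or without the replicate block, 5 at q under 0.05 and 3 with a crossed replicate block. In F2, 1 was called, and 0 by the quasi-likelihood test with or without the block, 0 with the replicate block in a likelihood-ratio test (Faah, adjusted p = 0.0104 by edgeR), 0 without the filter, 4 at q under 0.05, 3 with dispersion from the groups compared and 3 with the crossed block. Leaving out a library gave 0 to 2 genes in F1, 0 to 3 in F2 and 0 between F2 and F1. Over all genes, the 2144, 2084 and 129 calls (F1, F2, and F2 against F1) became 1029, 997 and 2 by the quasi-likelihood test, 848, 758 and 9 with the replicate block added, and 3623, 3606 and 230 at q under 0.05. They ranged from 988 to 2043, 703 to 2585 and 52 to 223 when a library was left out, which also leaves fewer samples and takes the lone library to vary like the other groups.

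Differences between replicates 1 and 2 had correlations across genes of -0.0269 (WT and F1), -0.083 (WT and F2) and -0.182 (F1 and F2). These values gave no sign that the replicate numbers pair the libraries, but they cannot exclude it. A likelihood-ratio test with F2 numbers crossed, chosen after the data were seen, called 2679, 2752 and 233 genes. Signs that turned did so only with a library left out: Napepld lay between -0.09 and 0.20 (F1) or -0.10 and 0.16 (F2), and Abhd6 between 0.00 and 0.22 (F2). Between F2 and F1 the ranges were -0.01 to 0.20 for Dagla, -0.24 to 0.04 for Daglb, -0.21 to 0.20 for Mgll, -0.17 to 0.12 for Napepld, -0.08 to 0.13 for Naaa and -0.23 to 0.06 for Cnr1. Directions of Daglb, Mgll, Naaa and Faah against WT held under every alternative run, as did those of Dagla, Abhd12 and Cnr1. For Daglb, Mgll, Abhd12, Naaa and Faah this was near certain in advance, as all F1 and F2 libraries lay beyond both WT libraries. The cause of the lost calls was not tested.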
